A study of Homo sapiens with 36 samples.

Results

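The genes described here encode 10 ligands of immune checkpoint receptors, among them VISTA. They were chosen by their symbols in the deposited gene table, and 10 of its 26475 gene symbols are members: C10orf54 (VISTA), CD274 (PD-L1), PDCD1LG2 (PD-L2), CD276 (B7-H3), VTCN1 (B7-H4), TNFRSF14 (HVEM), LGALS9 (galectin-9), PVR (CD155), PVRL2 (nectin-2) and CD47. The set was selected on results of these same libraries, so the values of each construct against its control are a description. A call there says only on which side of the threshold the fit of all genes put a value, is no independent test, and supports nothing further. Poly-A RNA was sequenced from 3 human cancer cell lines carrying hairpins or guides against 1 shared target gene. MDA-MB-468 was derived from a breast cancer of basal type, PANC-1 from a carcinoma of the pancreatic duct, and WiDr from a colorectal adenocarcinoma. In each line, 1 group carried the pGIPZ non-silencing hairpin (the control, pGIPZ-NS), another hairpin 1 (pGIPZ-#1) and another hairpin 2 (pGIPZ-#2). WiDr cells were also given the non-targeting guide NT-1 (the control), guide 1 (sgRNA#1) or guide 2 (sgRNA#2) for CRISPR editing. This makes 12 groups of 3 libraries, and every group, controls included, carries a hairpin or a guide. The labels do not say whether a group is a clone or a pool. In PANC-1 the level of the target did not follow the label of hairpin 2: it was near the control level. Those libraries are therefore called "the libraries labelled hairpin 2", and every direction given for them rests on that label.

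Immune checkpoints are receptors on T cells, natural killer cells and macrophages that dampen the immune response when they meet their ligands. Tumour cells can display such ligands: PD-L1 and PD-L2 bind PD-1, B7-H3, B7-H4 and VISTA belong to the same B7 family, HVEM binds BTLA, galectin-9 binds TIM-3, and CD155 and nectin-2 bind TIGIT. CD47 binds SIRP-alpha on macrophages and is known as a signal against being engulfed.

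Library totals ran from 28371127 to 49237322 expected counts. The share of ribosomal RNA genes was 4.61% to 9.60% in PANC-1 controls, against 0.838% to 2.60% with hairpin 1 and 1.22% to 1.80% in the libraries labelled hairpin 2. In WiDr it was 5.38% to 10.2% with hairpin 2, against 1.27% to 2.71% over the other hairpin groups of that line. The 12 immune cell markers summed to between 3.11 and 37.4 CPM per library, and 1 or 2 of them averaged at least 1 CPM in each group. PTPRC, which marks all leukocytes, had a mean of at most 0.0534 CPM in any group. ITGAM, another of the 12, was called up with both WiDr hairpins (log2 fold changes 2.21, SE 0.143, and 1.52, SE 0.148). All 5 basal markers were at 1 CPM or more in MDA-MB-468, against 1 in PANC-1 and 2 in WiDr. Of 6 colorectal markers, 3 or 4 were in the WiDr groups, and 2 or 3 in those of PANC-1. The 6 summed to between 363 and 872 CPM in WiDr libraries and between 9.31 and 15.9 CPM in PANC-1. All 6 pancreatic markers were at that level in PANC-1 and also in MDA-MB-468, and 5 in WiDr. Their number therefore did not set PANC-1 apart. The 6 summed to between 10894 and 15235 CPM in PANC-1 libraries, 4363 and 7425 CPM in MDA-MB-468, and 4385 and 6141 CPM in WiDr. These are bulk cultures, in which fewer cells with a transcript and less transcript per cell cannot be told apart. The p-values below rest on the spread between libraries within groups, pooled over all groups of a fit and drawn towards that of all genes. Each group holds 3 libraries, which the design text calls biological replicates.

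C10orf54, which encodes VISTA, was lower in every group labelled with a targeting hairpin, in all 3 lines, and higher with both guides in WiDr. The gene lies on the minus strand at chr10:71747559-71773498 (GRCh38, GENCODE 29, current symbol VSIR). It sits inside CDH23, which runs on the opposite strand, and shares no exon with it. The 250 bases before its start (RefSeq, GRCh38.p14, chr10:71773521-71773770, minus strand) are printed here beside those of CD274 (plus strand, chr9:5450292-5450541), because the level of CD274 is known to follow interferon signals through such sites. Capitals mark matches to GAAANNGAAA, the interferon regulatory factor element, or TTCNNNGAA, the gamma activated sequence, searched on both strands.
C10orf54: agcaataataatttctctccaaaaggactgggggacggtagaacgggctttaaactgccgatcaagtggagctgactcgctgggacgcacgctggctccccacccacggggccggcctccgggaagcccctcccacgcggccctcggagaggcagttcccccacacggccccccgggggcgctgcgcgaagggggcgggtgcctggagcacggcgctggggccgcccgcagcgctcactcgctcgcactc
CD274: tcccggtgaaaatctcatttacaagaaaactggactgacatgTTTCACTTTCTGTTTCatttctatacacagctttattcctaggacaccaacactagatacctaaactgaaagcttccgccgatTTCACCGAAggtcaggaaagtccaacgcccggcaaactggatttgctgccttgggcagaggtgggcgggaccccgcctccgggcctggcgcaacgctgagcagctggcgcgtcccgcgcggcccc

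The window of CD274 held the first motif in 2 overlapping minus-strand matches, starting 208 and 202 bases before the gene start, and the second motif once, 125 bases before it. The window of C10orf54 held neither. Of all 35116 windows of this length, 3.02% held the first motif and 6.57% the second, and the other 7 members with an entry held neither. A match of letters is a description and shows no binding.

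In PANC-1, C10orf54 stood at 53.8, 58.9 and 59.4 CPM in the controls, where CPM is the count relative to the TMM-scaled library size within an experiment. It stood at 29.3, 27.5 and 25.1 CPM with hairpin 1 and at 32.1, 29.7 and 27.99 CPM in the libraries labelled hairpin 2. All 6 targeting libraries lay below every control. The log2 fold changes were -1.07 (SE 0.0934) and -0.94 (SE 0.0932). In WiDr with hairpins the controls stood at 37.2, 42.6 and 41.1 CPM, hairpin 1 at 21.8, 20.5 and 19.2 CPM and hairpin 2 at 19.8, 18.7 and 18.3 CPM. Again no targeting library reached a control, with log2 fold changes of -0.98 (SE 0.0716) and -1.09 (SE 0.0717).

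In MDA-MB-468 the fall was smaller. The controls stood at 32.3, 24.7 and 27.0 CPM, against 20.1, 19.3 and 19.4 CPM with hairpin 1 and 15.7, 14.8 and 16.6 CPM with hairpin 2. The groups did not overlap, with log2 fold changes of -0.51 (SE 0.106) and -0.83 (SE 0.107). The call with hairpin 1 was lost on leaving out any library of the experiment except control replicate 2, with log2 values from -0.59 to -0.40, while that with hairpin 2 held in all 9 leave-outs (-0.92 to -0.72).

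With guides the order turned round. C10orf54 stood at 15.9, 15.3 and 17.2 CPM with the non-targeting guide, at 27.8, 31.6 and 30.5 CPM with guide 1 and at 17.9, 17.8 and 22.0 CPM with guide 2. All 6 targeting libraries lay above every control, guide 1 by far and guide 2 narrowly. The log2 fold changes were 0.89 (SE 0.0854) and 0.25 (SE 0.0877). The value with guide 2 rested most on its replicate 3, without which it was 0.13, and its call was lost in 6 of the 9 leave-outs: those of each control, of guide 1 replicates 2 and 3 and of guide 2 replicate 3 (0.13 to 0.31 over all). It was also lost with DESeq2, with its size factors and in 1 fit of all 36 libraries.

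**Figure D1:**
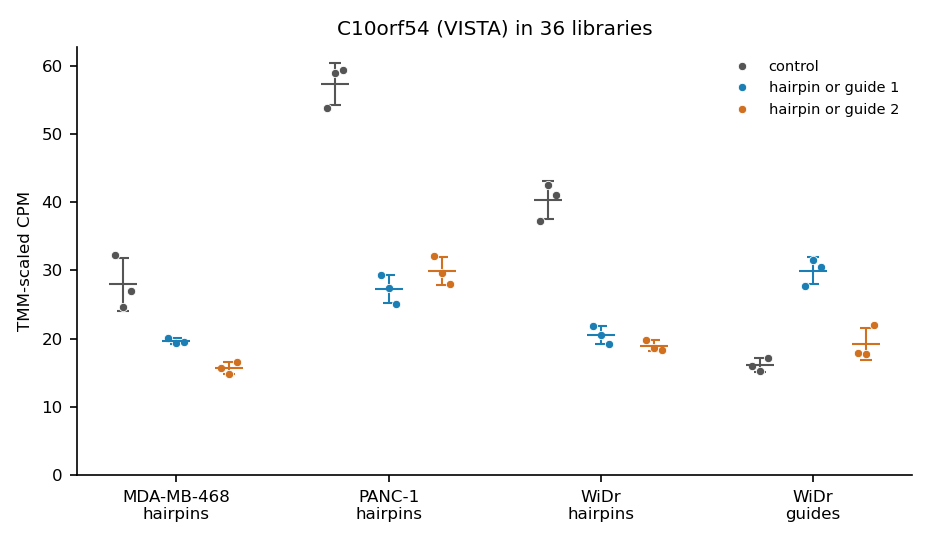
C10orf54 in TMM-scaled CPM (y axis, from 0) for each of the 36 libraries, grouped by experiment (x axis). Points are libraries, dashes the mean and bars the SD of 3. The targeting libraries lie below their controls in the 3 hairpin experiments and above them in the guide experiment, where the control sits at 15.3 to 17.2 CPM.

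Construct 2 was also compared with construct 1, and the WiDr controls with each other. These comparisons use the same libraries, and construct 2 minus construct 1 is the difference of the values against the control. Their adjusted p-values are therefore a description as well and no independent test. C10orf54 was lower with guide 2 than with guide 1 by a log2 difference of -0.64 (SE 0.0839, adjusted p = 1.62e-05, edgeR quasi-likelihood test, Benjamini-Hochberg over all genes). This holds for the guides as the titles name them. The genotype field names the other guide in 4 of the 6 guide libraries, and grouped by it the difference was 0.38 (SE 0.269), reversed and not called. No member, and 0 of all genes tested, differed between guides by that field. The value by that field is given beside each guide comparison below. Between the hairpins C10orf54 did not pass in MDA-MB-468 (-0.32, SE 0.107), PANC-1 (0.13, SE 0.0930) or WiDr (-0.11, SE 0.0742). The guide control stood below the hairpin control of the same line by -1.36 (SE 0.0677, edgeR adjusted p = 1.63e-11). On 1 scaling of all 36 libraries the guide control reached 17.4 CPM at most, below the 18.7 CPM of the lowest WiDr library with a targeting hairpin. On that scaling the PANC-1 control (58.4 ± 3.39 CPM, SD, n = 3) and the WiDr hairpin control (41.3 ± 2.83) stood highest, and neither overlapped the group next below it. The WiDr guide control (16.3 ± 1.04) and MDA-MB-468 hairpin 2 (15.2 ± 1.19) stood lowest, and their libraries overlapped.

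CD274, the ligand of PD-1 that is targeted in cancer immunotherapy, was detected in every library but only with 7 to 83 counts. In WiDr with hairpins it stood at 1.07, 1.07 and 1.02 CPM in the controls, 0.769, 0.803 and 0.778 CPM with hairpin 1 and 0.294, 0.185 and 0.437 CPM with hairpin 2. The 3 groups did not overlap. The log2 fold change was -1.86 (SE 0.311) with hairpin 2, which was called, and -0.42 (SE 0.270) with hairpin 1, which was not. Hairpin 2 was below hairpin 1 by -1.43 (SE 0.323, edgeR adjusted p = 0.00224), and this held in all 9 leave-outs (-1.75 to -1.10). The share of ribosomal RNA was also highest with hairpin 2, and its part in this was not tested beyond leaving those genes out of the table, after which the same comparison was still called.

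With guides CD274 stood at 1.55, 1.07 and 1.76 CPM in the controls, 1.74, 1.90 and 1.502 CPM with guide 1 and 1.09, 1.21 and 1.17 CPM with guide 2. Both guide groups overlapped the controls and neither value was called (0.23, SE 0.210, and -0.34, SE 0.219). Guide 2 was below guide 1 by -0.57 (SE 0.214, edgeR adjusted p = 0.0490), a call lost in 8 of 9 leave-outs, all but that of control replicate 2 (-0.66 to -0.48), and 0.078 by the genotype field, not called. In MDA-MB-468 and PANC-1 CD274 ranged from 0.202 to 0.606 CPM, groups overlapped, and no value was called.

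PDCD1LG2, the other PD-1 ligand, lies beside CD274 on chromosome 9. It had 0 counts in all but 3 libraries, which held 1, 3 and 1 counts. A count of 0 allows up to 3 counts, or 0.0609 to 0.106 unscaled CPM over these libraries, for counting error only. It was tested in no experiment.

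CD276, a B7 family member found on many solid tumours, stood above C10orf54, CD274 and VTCN1 per kilobase of transcript in the PANC-1 and WiDr controls (20.1, 38.9 and 57.1 CPM per kb with PANC-1, WiDr hairpin and guide controls). In PANC-1 it stood at 71.8, 63.8 and 70.3 CPM in the controls, 90.3, 98.7 and 99.0 CPM with hairpin 1 and 96.6, 92.1 and 85.6 CPM in the libraries labelled hairpin 2. No control reached a targeting library, and both values were called (0.48, SE 0.0860, and 0.41, SE 0.0860). In WiDr it was lower with hairpin 1 (-0.32, SE 0.0463, called) and at the control level with hairpin 2 (-0.01, SE 0.0460), and hairpin 2 exceeded hairpin 1 by 0.31 (SE 0.0463, edgeR adjusted p = 7.12e-05). With guides it was -0.07 (SE 0.0507, not called) and -0.24 (SE 0.0508, called), and guide 2 was below guide 1 by -0.16 (SE 0.0508, edgeR adjusted p = 0.0188). That last call was lost without guide 1 replicate 1 or guide 2 replicate 2 (-0.20 to -0.14 over the leave-outs), and by the genotype field the value was 0.086, not called. MDA-MB-468 showed 44.4 to 52.2 CPM in all 9 libraries, with no call.

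VTCN1, whose product B7-H4 is known from breast and ovarian tumours, was abundant in MDA-MB-468 alone of the 3 lines. It stood at 229 to 239 CPM in all 9 MDA-MB-468 libraries, where each hairpin group overlapped the control and the log2 fold changes were 0.01 (SE 0.0574) and -0.02 (SE 0.0574). It had 0 to 7 counts per library in the hairpin libraries of PANC-1 and WiDr, and 2 to 20 counts in the guide libraries. It passed the filter on low counts only in MDA-MB-468.

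TNFRSF14 encodes HVEM, a receptor of the tumour necrosis factor family that serves as the ligand of BTLA. In WiDr with guides it stood at 16.0, 16.6 and 19.5 CPM in the controls, 22.96, 24.0 and 24.3 CPM with guide 1 and 18.3, 19.3 and 22.0 CPM with guide 2. Guide 1 lay above every control (0.45, SE 0.0840, called) and guide 2 overlapped them (0.19, SE 0.0852, not called). Guide 2 was below guide 1 by -0.26 (SE 0.0829, edgeR adjusted p = 0.0229), a call lost without guide 1 replicate 2 or 3 or guide 2 replicate 1 or 2 (-0.34 to -0.20), and 0.19 by the genotype field, not called. With hairpins in WiDr the values were -0.15 (SE 0.0767, not called) and -0.29 (SE 0.0770, called). In PANC-1 they were 0.37 (SE 0.134) and 0.20 (SE 0.134), neither called. An antisense gene, TNFRSF14-AS1, overlaps its exons, and since the strand setting of the counting is not given in the sources used here, reads of the pair may not be told apart.

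LGALS9, which encodes galectin-9, a secreted sugar-binding ligand of TIM-3, was higher in MDA-MB-468 with both hairpins. It stood at 3.79, 3.74 and 4.18 CPM in the controls, 6.07, 5.41 and 5.69 CPM with hairpin 1 and 5.997, 5.39 and 6.29 CPM with hairpin 2. All 6 targeting libraries lay above every control (0.55, SE 0.111, and 0.59, SE 0.111, both called). The call with hairpin 1 was lost in every leave-out but that of hairpin 2 replicate 2 (0.51 to 0.61). The call with hairpin 2 was lost without control replicate 2 or 3, hairpin 1 replicate 3 or hairpin 2 replicate 1 or 3 (0.54 to 0.66). In PANC-1 the values were of like size at about 1 CPM and not called (0.50, SE 0.235, and 0.51, SE 0.236).

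In WiDr LGALS9 moved in opposite directions with the 2 hairpins. It stood at 22.8, 23.7 and 26.0 CPM in the controls, 28.3, 28.1 and 28.2 CPM with hairpin 1 and 22.4, 19.7 and 20.1 CPM with hairpin 2. The log2 fold changes were 0.22 (SE 0.0704) and -0.22 (SE 0.0716), both called. The first call was lost without control replicate 1 or 2 (0.18 to 0.28 over the leave-outs), and the second without control replicate 3 or hairpin 2 replicate 2 or 3 (-0.28 to -0.17). Hairpin 2 was below hairpin 1 by -0.45 (SE 0.0710, edgeR adjusted p = 0.000146), which held in every leave-out. With guides it was -0.10 (SE 0.0578, not called) and -0.57 (SE 0.0589, called), and guide 2 was below guide 1 by -0.47 (SE 0.0587, edgeR adjusted p = 9.6e-06), against 0.37 by the genotype field, not called. The table also holds the near copies LGALS9B and LGALS9C, and AC015688.4 shares exons on the same strand, so these counts are uncertain where reads were split between them.

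PVR and PVRL2 encode CD155 and nectin-2, adhesion proteins of the nectin family that bind TIGIT and the activating receptor DNAM-1. PVR stood at 71.9, 68.0 and 70.4 CPM in PANC-1 controls, 56.97, 61.2 and 57.6 CPM with hairpin 1 and 53.8, 55.1 and 51.3 CPM in the libraries labelled hairpin 2. In WiDr with hairpins it stood at 467, 470 and 458 CPM in the controls, 387, 388 and 395 CPM with hairpin 1 and 389, 385 and 397 CPM with hairpin 2. In both lines the targeting libraries lay below every control and all values were called: -0.26 (SE 0.0741) and -0.39 (SE 0.0742) in PANC-1, -0.25 (SE 0.0446) and -0.25 (SE 0.0446) in WiDr. The PANC-1 call with hairpin 1 was lost without control replicate 3 or hairpin 1 replicate 2 or 3 (-0.30 to -0.26).

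In MDA-MB-468 PVR was -0.32 (SE 0.0654) with hairpin 1, called but lost in every leave-out save that of hairpin 2 replicate 2 (-0.35 to -0.30), and -0.19 (SE 0.0653) with hairpin 2, not called. With guides PVR, like C10orf54, went up. It stood at 245, 255 and 259 CPM in the controls, 381, 376 and 378 CPM with guide 1 and 294, 291 and 297 CPM with guide 2, and the 3 groups were apart. The log2 fold changes were 0.58 (SE 0.0438) and 0.22 (SE 0.0438), both called in all leave-outs. Guide 2 was below guide 1 by -0.36 (SE 0.0437, edgeR adjusted p = 6.4e-06), against 0.20 by the genotype field, not called. The guide control was below the WiDr hairpin control by -0.92 (SE 0.0364, edgeR adjusted p = 8.89e-13). Exons of PVR overlap CEACAM19 on the same strand.

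PVRL2 was called down in the hairpin groups of PANC-1 and WiDr and was not called with guides. It stood at 131, 144 and 144 CPM in PANC-1 controls, 119, 115 and 110 CPM with hairpin 1 and 110, 105 and 97.5 CPM in the libraries labelled hairpin 2. It was called in PANC-1 (-0.28, SE 0.0824, and -0.42, SE 0.0825) and in WiDr (-0.25, SE 0.0466, and -0.24, SE 0.0466). It was not called in MDA-MB-468 (-0.21, SE 0.0801, and -0.20, SE 0.0801), where no targeting library reached a control. The PANC-1 call with hairpin 1 was lost without control replicate 2 or 3, hairpin 1 replicate 2 or 3 or replicate 2 of those labelled hairpin 2 (-0.35 to -0.26). With guides it was 0.14 (SE 0.0559) and -0.04 (SE 0.0559), neither called, though the first was called without control replicate 3 or guide 2 replicate 1 or 3 (0.10 to 0.20). Guide 2 was below guide 1 by -0.18 (SE 0.0559, edgeR adjusted p = 0.0208), lost without guide 1 replicate 2 or guide 2 replicate 1 or 2 (-0.21 to -0.15), and 0.091 by the genotype field, not called. Between the WiDr controls it did not pass (-0.06, SE 0.0468). An antisense gene, AC011481.2, overlaps its exons.

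CD47 differed between the WiDr hairpins more than between hairpin and control in any line. It stood at 69.8, 65.3 and 67.6 CPM in the WiDr hairpin controls, 81.8, 77.9 and 76.6 CPM with hairpin 1 and 46.3, 48.8 and 47.3 CPM with hairpin 2. The 3 groups were apart, hairpin 1 above the control (0.22, SE 0.0517) and hairpin 2 below it (-0.51, SE 0.0526), both called. Hairpin 2 was below hairpin 1 by -0.73 (SE 0.0525, edgeR adjusted p = 3.84e-08), with -0.75 to -0.70 over the leave-outs. Neither guide was called (-0.09, SE 0.0609, and -0.06, SE 0.0610), nor was any hairpin in MDA-MB-468 or PANC-1, where values lay between -0.15 and 0.02.

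**Figure D2:**
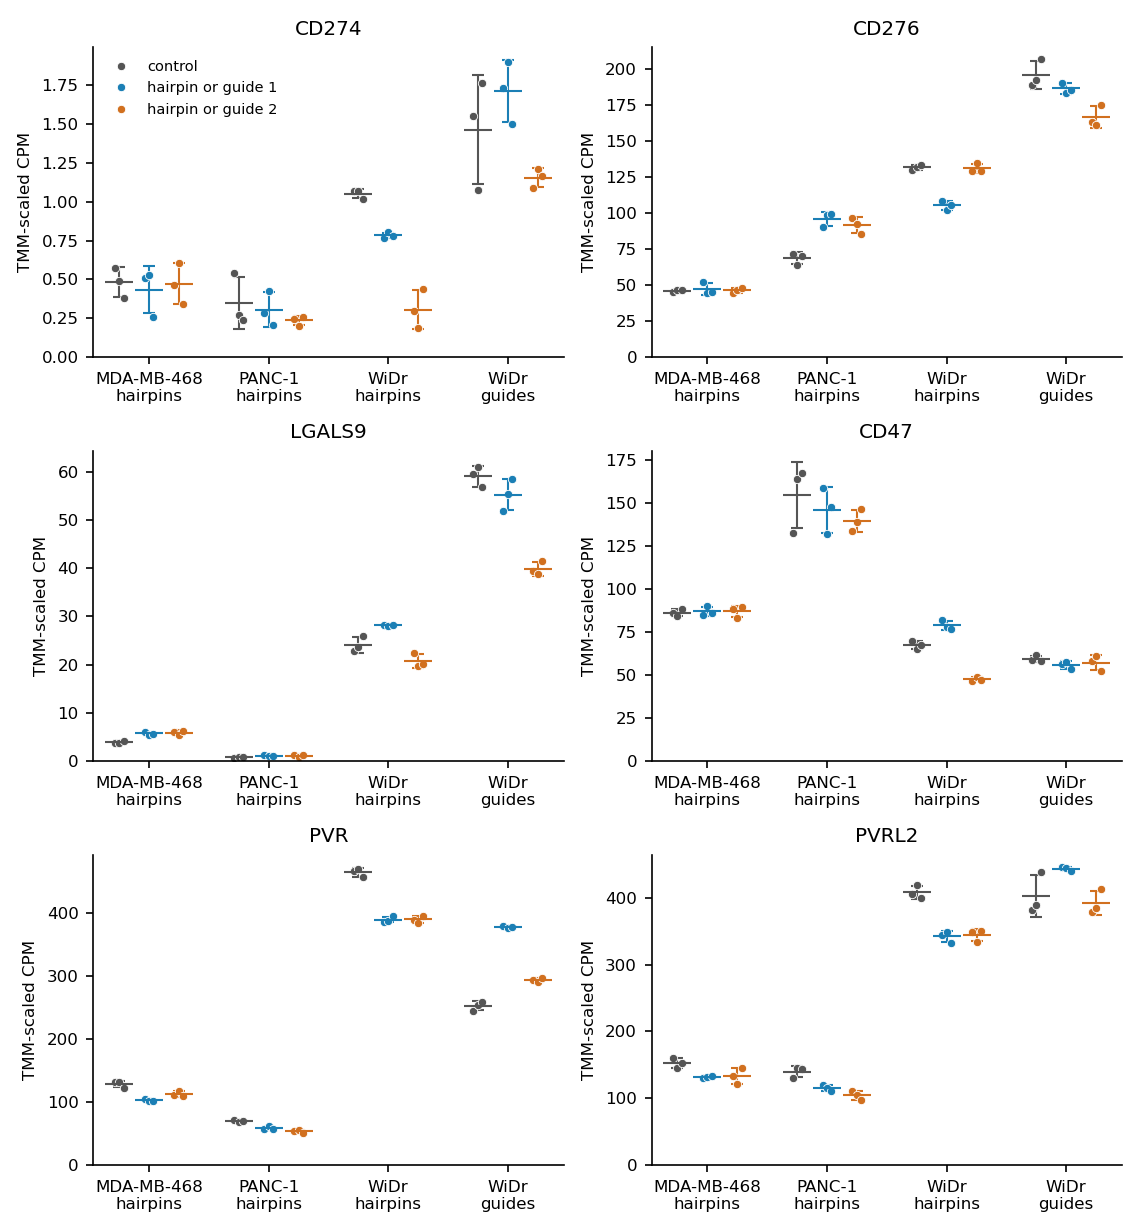
TMM-scaled CPM (y axes, from 0) of CD274, CD276, LGALS9, CD47, PVR and PVRL2 in each library, grouped by experiment (x axes). Points are libraries, dashes the mean and bars the SD of 3. CD47 and LGALS9 in WiDr with hairpins lie above the control with hairpin 1 and below it with hairpin 2, and PVR lies below its control with hairpins and above it with guides.

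A call is an adjusted p under 0.05 in the edgeR fit of all genes of an experiment. Because values against the control chose the members, nothing is read from their counts beside the share of all genes. In MDA-MB-468, 3 of 9 tested members were called with hairpin 1 (1 up, 2 down), against 2.27% of all genes tested, and 2 with hairpin 2 (1 up, 1 down), against 3.49%. The 2 called with both in the same direction, against 1.31% of genes, were C10orf54 down and LGALS9 up. By edgeR 0 of 9 differed between the hairpins, against 0.437% of genes, with 1 (C10orf54) at an unadjusted p under 0.05 and 0 by DESeq2. In PANC-1, 4 of 8 were called with hairpin 1 (background 30.2%) and 4 in the libraries labelled hairpin 2 (background 33.4%). All 4 were called with both (background 23.8%): CD276 up, and C10orf54, PVR and PVRL2 down. By edgeR 0 of 8 differed between the hairpins, against 0.106% of genes, with 0 at an unadjusted p under 0.05 and 0 by DESeq2.

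In WiDr with hairpins, 6 of 8 were called with hairpin 1 (2 up, 4 down; background 48.0%) and 7 with hairpin 2 (all down; background 44.7%). The 3 called with both were C10orf54, PVR and PVRL2, all down (background 25.2%). Between these hairpins 4 of 8 differed, against 42.4% of all genes: CD276 was higher with hairpin 2, and CD274, LGALS9 and CD47 were lower. With guides, 3 of 8 were called with guide 1 (all up; background 41.6%) and 4 with guide 2 (2 up, 2 down; background 25.5%). C10orf54 and PVR were called up with both, against 14.7% of genes. Guide 2 was below guide 1 for 7 of 8, all but CD47, where 34.4% of all genes differed. By the genotype field the count is 0 for the members and also 0 for all genes tested.

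The WiDr guide control and hairpin control differed for 6 of 8 tested members, against 62.3% of all genes. CD276 (0.53, SE 0.0410, edgeR adjusted p = 4.92e-09) and LGALS9 (1.25, SE 0.0584, edgeR adjusted p = 6.89e-12) were higher in the guide control. Besides C10orf54 and PVR, TNFRSF14 (-0.33, SE 0.0809, edgeR adjusted p = 0.00182) and CD47 (-0.23, SE 0.0461, edgeR adjusted p = 0.000312) were lower in it. One control carries a hairpin and the other a guide, and what else differs between these experiments cannot be told apart from that. The median log2 fold change of the tested members was -0.15 and -0.27 in PANC-1 and -0.25 and -0.27 in WiDr with hairpins 1 and 2. All genes tested had medians between -0.02 and 0.00 in those comparisons. In MDA-MB-468 the members' medians were 0.01 and -0.02, and with guides 0.18 and -0.05. Values against the control chose the members, so nothing is read from their medians beside those of all genes.

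**Figure D3:**
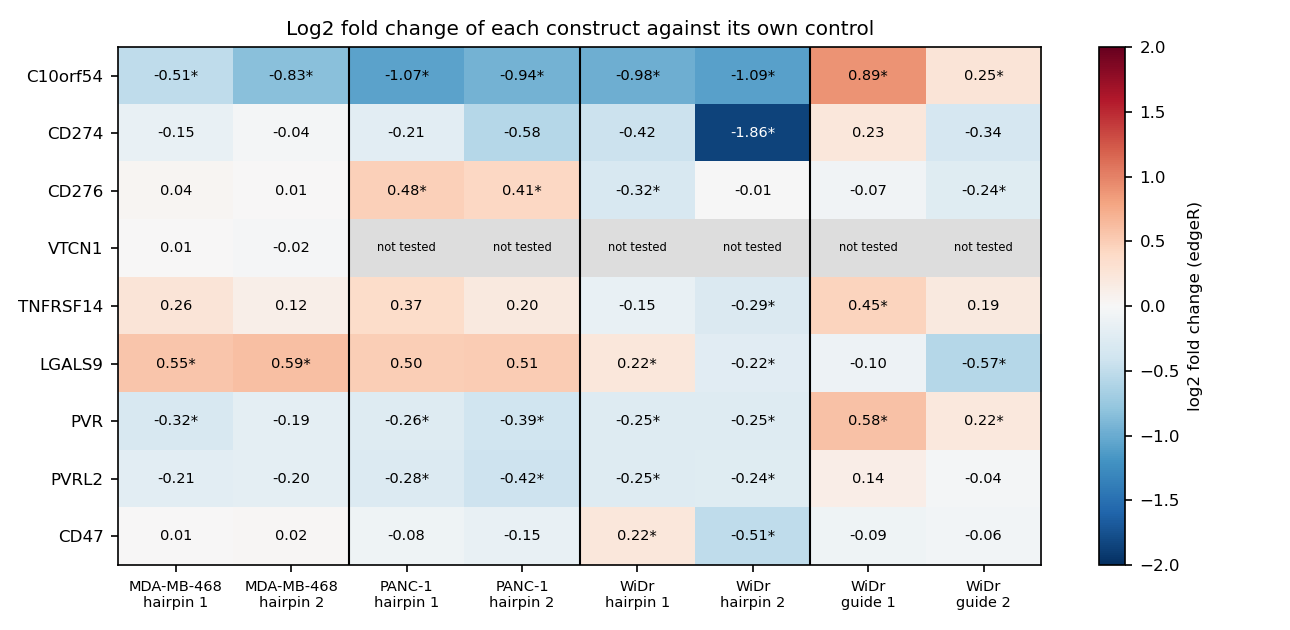
Log2 fold change of each tested member (rows) with each construct against its own control (columns), from edgeR, with an asterisk where it was called; grey cells were not tested. The row of C10orf54 runs from -1.09 with WiDr hairpin 2 to 0.89 with guide 1.

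Levels of different genes were compared per kilobase of the longest annotated transcript, on 1 scaling of all libraries. PVRL2 and PVR led in the WiDr hairpin control (169 and 143 CPM per kb) and in the guide control (165 and 76.9). With the median transcript length PVRL2 still led there, but CD276 came before PVR. CD276 then stood at 208 and PVR at 153 in the hairpin control, and at 305 and 82.3 in the guide control. In MDA-MB-468, VTCN1 led at 81.5 CPM per kb, ahead of PVRL2 at 59.0. With the median transcript length that order turned, to 96.8 for VTCN1 and 165 for PVRL2. In PANC-1, PVRL2 led at 57.7, and C10orf54 stood at 12.5 CPM per kb there, its highest control level. CD274 stood at 0.0971 to 0.406 CPM per kb over the 4 controls.

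**Figure D4:**
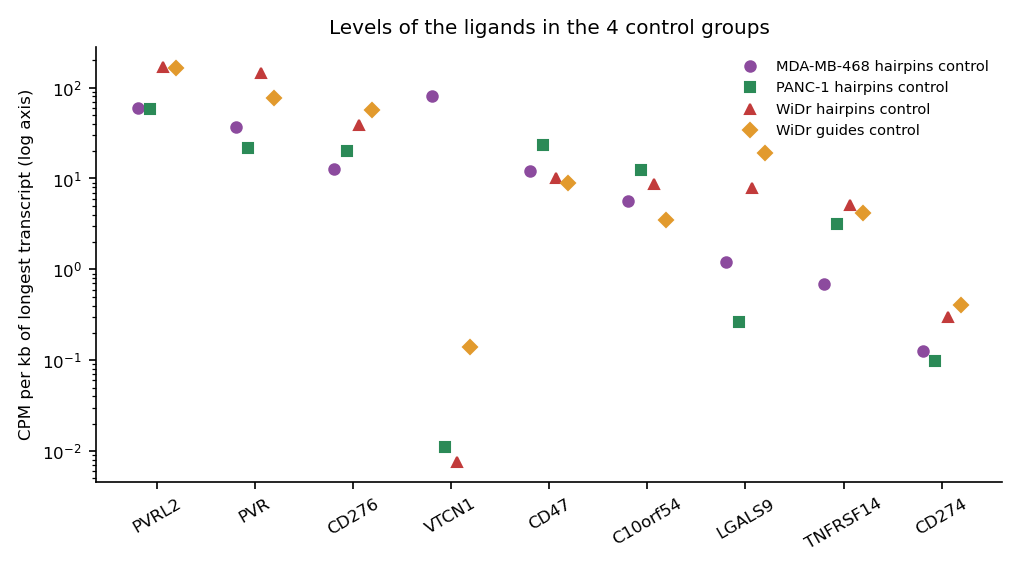
Mean level of 9 members in the 4 control groups, as CPM per kb of the longest transcript (log y axis); PDCD1LG2, at or near 0, is not drawn. VTCN1 spans the widest range between lines, and PVRL2 is the highest member in PANC-1 and WiDr.

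The receptors of these ligands belong mostly to immune cells, and only 6 to 8 of 19 listed receptors and partners passed the filter. THBS1, which encodes thrombospondin-1, a ligand of CD47, was lower in PANC-1 with hairpin 1 (-1.92, SE 0.183) and in the libraries labelled hairpin 2 (-1.80, SE 0.182). P4HB, a protein disulfide isomerase that binds galectin-9, was called up in both targeting groups of PANC-1 (0.39 and 0.25) and down in those of WiDr (-0.86 and -0.50). These were 1 up and 1 down of 8 tested in PANC-1, against 23.8% of all genes. For WiDr with hairpins it was 1 down of 6, against 25.2%. No listed receptor or partner was called with both constructs in MDA-MB-468 (6 tested, 1.31% of all genes) or with both guides (7 tested, 14.7%).

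Other ligands of checkpoint and costimulatory receptors were called in both targeting groups, in the same direction, for 9 of 26 tested genes in PANC-1 (6 up, 3 down, against 23.8% of all genes) and 14 of 25 in WiDr with hairpins (3 up, 11 down, against 25.2%). In PANC-1, TNFSF9, the ligand of 4-1BB, was higher (1.59 and 1.86), as were CD70, the ligand of CD27 (0.84 and 0.72), and ULBP1, a ligand of NKG2D (1.506 and 1.396). NT5E, the adenosine-producing enzyme CD73, was higher in PANC-1 (1.02 and 1.14) and lower in MDA-MB-468 (-1.87 and -1.58), where it was the 1 called of 25, against 1.31% of all genes. In WiDr with hairpins, HHLA2, another B7 member, was higher (1.92 and 0.78). ULBP2 (-1.01 and -0.85), BTN3A1 (-0.73 and -0.66) and HLA-E (-0.65 and -0.82) were lower. With guides 3 of 26 were called, against 14.7% of all genes: LGALS3 up (0.91 and 0.53), ENTPD1 (-0.73 and -0.54) and CEACAM1 (-0.34 and -0.42) down.

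The interferon gamma list is named for the pathway that is known to raise CD274. It mixes genes that carry interferon signals, not only those of interferon gamma, with genes that curb them. Its counts up and down therefore give no direction of the pathway. In MDA-MB-468, 0 of its 12 tested genes were called with both constructs (1.31% of all genes). The count was 6 of 12 in PANC-1 (5 up, 1 down, against 23.8%), 4 of 11 in WiDr with hairpins (1 up, 3 down, against 25.2%) and 2 of 12 with guides (1 up, 1 down, against 14.7%). In WiDr the transcription factor IRF9 was lower (-0.29 with hairpin 1, -1.38 with hairpin 2). STAT2 (-0.25 and -0.44) and IRF1 (-0.30 and -0.18) were also lower, and JAK1 was higher (0.24 and 0.39). With guides STAT2 was lower (-0.16 and -0.53) and IFNGR1 higher (0.29 and 0.27). In PANC-1, SOCS3 (0.90 and 0.73), IRF9 (0.81 and 0.65) and IFNGR2 (0.43 and 0.39) were higher and the phosphatase PTPN2 lower (-0.66 and -0.73), while CD274 was not called. Whether any of these values bears on CD274 was not tested.

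Genes that modify the PD-L1 or CD47 protein were called with both constructs in 0 of 12 in MDA-MB-468, 1 in PANC-1, 4 in WiDr with hairpins and 3 with guides, against the same shares of all genes. QPCTL, the enzyme that modifies CD47 at its SIRP-alpha binding end, was lower with both WiDr hairpins (-0.51 and -0.43). STT3A, a glycosylation subunit, was lower with WiDr hairpins (-0.76 and -0.25) and higher with guides (0.58 and 0.16). TRAPPC4, a trafficking subunit, had the same signs (-0.28 and -0.27 against 0.50 and 0.27). B3GNT3, a glycosyltransferase, was higher in PANC-1 (1.55 and 2.04) and lower in WiDr (-0.34 and -0.18), and CMTM4, which stabilises PD-L1, was lower with guides (-0.23 and -0.21).

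By Pearson r of log2(CPM + 1) over the 12 group means, the genes most like C10orf54 among 11546 were METTL21B (0.870), HOTAIRM1 (0.842) and UNC50 (0.831). Those most like CD274 among 11547 were IFIH1 (0.966), CMPK2 (0.966) and RSAD2 (0.964). IFIH1 and RSAD2 are known as interferon-induced genes. CMPK2 stood at 8.06 CPM in the WiDr hairpin control, 7.94 with hairpin 1 and 0.844 with hairpin 2, and at 24.0, 26.0 and 8.52 CPM in the guide control, guide 1 and guide 2. The groups share cell lines and controls, so these values describe likeness only.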

How the data were processed

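Poly-A RNA of 36 libraries was sequenced, 3 per group, in 4 experiments of 9 libraries. Per the submitters' processing notes, the tools were Bowtie2 2.1.0 and RSEM 1.2.15 with the build hg38. The authors deposited expected counts per gene symbol, estimates that need not be whole and were rounded here. Which annotation and strand setting they used is not stated there. Experiments were fitted one by one with edgeR 4.0.16 under R 4.3.3 (filterByExpr by group, TMM scaling, robust quasi-likelihood fit, Benjamini-Hochberg over all genes, threshold 0.05); the 6 WiDr control libraries were fitted apart. SE is the log2 fold change divided by the square root of F. Alternatives were DESeq2 1.42.0, no filter, other scaling, no ribosomal RNA genes, 1 fit of 36 libraries, leaving out each library, a replicate block, and grouping guides by the genotype field. Members and lists were chosen with earlier results of these data known. All 10 members were named, up to 4 genes per list and experiment (called with both constructs in the same direction and averaging at least 1 CPM, by the smaller of their changes), and the 3 genes most like C10orf54 and CD274 among genes with mean CPM of at least 5. The fitting was tested on simulated data. Chi-square per degree of freedom between replicates of a group was 3.49 to 183, so no replicate pair agreed within counting noise; libraries of different groups were not compared in this way. Depth limits CD274, PDCD1LG2 and, outside MDA-MB-468, VTCN1. The gene addressed by the constructs and 1 gene first placed in the interferon gamma list are not reported here, and the list's counts leave the latter out.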

Additional observations from a re-analysis of the deposited data

Results flagged for a closer look

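For some members all 6 targeting libraries lay on one side of the control mean in 1 experiment and all 6 on the other side in another; for C10orf54 and PVR they also lay beyond every single control each time, while for LGALS9, CD276 and TNFRSF14 at least 1 of the experiments had only 4 or 5 of 6 beyond every control. The values are differences of log2(CPM + 0.5), mean of 6 targeting minus mean of 3 control libraries, between the experiments. None of these differences was tested. How many of all genes change side in this way was not counted, so nothing here sets these members apart from other genes. For C10orf54 they were -1.21 (MDA-MB-468 minus WiDr guides), -1.55 (PANC-1 minus WiDr guides) and -1.57 (WiDr hairpins minus WiDr guides). For PVR they were -0.652, -0.72 and -0.65 in the same order. LGALS9 gave 0.847 for MDA-MB-468 minus WiDr guides and 0.653 for PANC-1 minus WiDr guides. CD276 gave 0.599 for PANC-1 minus WiDr guides. TNFRSF14 gave 0.497 for PANC-1 minus WiDr hairpins and -0.529 for WiDr hairpins minus WiDr guides.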

How the results depend on the processing

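Of 1581 alternative values of the members' 107 log2 fold changes, 88 of the 732 alternatives of called values lost the call and 17 of the 849 of uncalled values gained one; 21 of the 107 values changed sign under some alternative, 0 of them called. These exclude the guide grouping by the genotype field. Members called with both constructs numbered 2 in MDA-MB-468, 3 with DESeq2, 3 in the fit of all 36 libraries, 0 without a filter on low counts, 0 with the replicate block and 0 to 1 leaving out a library. In PANC-1 they numbered 4, 5 in the fit of all 36 libraries, 2 without a filter, 2 with the replicate block and 2 to 4 leaving out a library. In WiDr they numbered 3 with hairpins (3 to 4 leaving out a library), and with guides 2, 1 with DESeq2, 1 with its size factors in edgeR, 1 in the fit of all 36 libraries, 3 with the replicate block and 1 to 3 leaving out a library. Members differing between guides numbered 7, 3 in the fit of 36 libraries and 3 to 7 leaving out a library; between WiDr hairpins they stayed at 4 and between the WiDr controls at 6 to 8. Between the hairpins of MDA-MB-468 and of PANC-1 the count was 0 to 0 leaving out a library. Counts of all genes moved with the fit as well. Those called with both numbered 192 in MDA-MB-468, 423 with DESeq2, 497 in the 36-library fit, 154 without a filter and 141 with the block. In PANC-1 they numbered 3596, 5267 in the 36-library fit, 3075 without a filter and 2304 with the block. With guides they numbered 2159, 1944 with DESeq2, 2089 with its size factors, 680 in the 36-library fit and 2668 with the block. Between guides 5040 differed, and 2802 in the 36-library fit. Grouping the guides by the genotype field gave 0 members called with both and 0 between guides. Of all genes, 126 were called with both by that field and 0 between guides. The same grouping turned the guide 2 minus guide 1 values to 0.38 (C10orf54), 0.078 (CD274), 0.086 (CD276), 0.37 (LGALS9), 0.19 (TNFRSF14), 0.20 (PVR) and 0.091 (PVRL2). Which field is right was not tested. Whether replicate numbers pair libraries was not settled. Correlations of same-numbered residuals were -0.22 to 0.64 in MDA-MB-468, -0.67 to 0.13 in PANC-1, -0.15 to 0.07 in WiDr with hairpins and -0.05 to 0.13 with guides. Those of other-numbered residuals were -0.62 to 0.55, -0.34 to 0.50, -0.11 to 0.14 and -0.13 to 0.07 in the same order. The ranges overlapped in each experiment. The cause of these changes was not tested.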
